A study of Homo sapiens with 6 samples.

Results

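The AP-1 genes described here are the 10 genes FOS, FOSB, FOSL1, FOSL2, JUN, JUNB, JUND, BATF, BATF2 and BATF3, taken by name from a table of read counts for 56638 genes. All 10 were in the table, and 9 had enough reads to be tested, among 16340 genes in all. BATF2 did not pass the filter on low counts. The samples were 3 libraries of SKI knockout cells, labelled as a CRISPR/Cas9 knockout of SKI, and 3 libraries of cells carrying a CRISPR/Cas9 control. Both groups were HL60 cells, an established human leukaemia line with the character of promyelocytes, grown in RPMI medium with 10% FCS, and no other treatment is named in the labels. The titles of the knockout libraries all carry the number 3 and those of the control libraries the number 1, read here as 1 line in each group. In such a design the loss of SKI and other differences between the lines cannot be told apart. Nothing in the labels ties the replicates to separate cultures. A p-value here thus sets the difference between groups only against the spread among libraries within them, and that spread may be technical.

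AP-1 is a transcription factor made of a pair of basic leucine zipper proteins. FOS proteins pair with JUN proteins, JUN proteins also pair with one another, and BATF proteins pair with JUN proteins and can bind DNA beside interferon regulatory factors. FOS, FOSB, JUN and JUNB are immediate-early genes, switched on within minutes by growth factors and stress through MAP kinases and then silenced again. In myeloid cells AP-1 is known for its part in differentiation towards monocytes and macrophages, and in mice loss of Junb in the myeloid lineage gives a myeloproliferative disease. SKI encodes a co-repressor of the SMAD factors of TGF-beta signalling, and SMAD and AP-1 proteins act together on some promoters. The comparison asks how the cells' transcripts differ where SKI has been targeted.

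Library totals ran from 47930276 to 58553247 counts. Levels are given in CPM, counts scaled to a common library size after TMM adjustment, and 3 counts corresponded to between 0.0509 and 0.0628 CPM. SKI itself was at 59.6, 40.7 and 42.0 CPM in SKI knockout replicates 1 to 3, against 63.9, 83.5 and 88.5 CPM in control replicates 1 to 3. Its log2 fold change was -0.73 (SE 0.19, edgeR adjusted p = 0.0282), so the mRNA was lower but still present, and the call held in 3 of the 6 fits that left out 1 library. It was lost without SKI knockout replicate 2 (adjusted p = 0.0769), control replicate 2 (adjusted p = 0.109) or control replicate 3 (adjusted p = 0.136), and also with library totals in place of TMM (adjusted p = 0.0673) and relative to its 50 nearest genes (log2 -0.45, adjusted p = 0.169). Of 8 markers of promyelocytes 7 were tested and 6 fell, where edgeR called 5.63% of all tested genes lower. ELANE had 0 reads in all SKI knockout libraries and at most 4 in a control library. The summed level of the 8 markers was 3181 to 9280 CPM in SKI knockout libraries and 12814 to 15072 CPM in control libraries. The 6 monocyte and macrophage markers together stayed between 0.124 and 0.163 CPM in SKI knockout libraries and between 0.322 and 0.481 CPM in control libraries, with MRC1 at 0 counts throughout. The 8 mature granulocyte markers summed to 0.621 to 1.33 CPM in SKI knockout and 0.170 to 0.481 CPM in control libraries, with FCGR3B at 0 and S100A9 higher. Lymphoid markers summed to 2.05 to 5.87 CPM in SKI knockout and 0.967 to 1.41 CPM in control libraries, where MS4A1 and NCAM1 were at 0 and CD79A rose. Erythroid and megakaryocyte markers summed to 0.495 to 0.777 CPM in SKI knockout and 0.711 to 1.16 CPM in control libraries, with HBA1 and PF4 at 0. Epithelial and fibroblast markers summed to 5.11 to 10.0 CPM in SKI knockout and 3.07 to 5.40 CPM in control libraries, with COL3A1 at 0. The part of these shifts in the AP-1 values was not tested. In bulk RNA, fewer cells of a kind and less RNA per cell cannot be told apart.

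The promoters of 5 members are printed to show how alike or unlike the starts of these genes are. JUNB is the member that passed the test, JUND and JUN are its relatives in the same family, and FOS and FOSB are inducible genes of the other family, FOSB with the widest spread among libraries. Each sequence is the 250 bases before the transcription start in RefSeq on build GRCh38.p14, which is not the build of the counts. They lie at chr19:12791236-12791485 (plus strand) for JUNB, chr19:18281623-18281872 (minus strand) for JUND, chr1:58784048-58784297 (minus strand) for JUN, chr14:75278578-75278827 (plus strand) for FOS and chr19:45467746-45467995 (plus strand) for FOSB. Capitals mark matches, on either strand, to TGACGTCA (the cAMP response element), to TGACATCA (the variant of it known from the JUN promoter), to the core TGACG (which is part of the full element), to the CCAAT box and to the TATA box in the form TATAAA.
JUNB: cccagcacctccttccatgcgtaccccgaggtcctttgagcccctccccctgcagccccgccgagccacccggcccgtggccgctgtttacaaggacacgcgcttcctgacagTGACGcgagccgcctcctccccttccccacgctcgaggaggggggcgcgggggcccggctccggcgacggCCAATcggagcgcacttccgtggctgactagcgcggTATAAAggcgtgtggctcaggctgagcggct
JUND: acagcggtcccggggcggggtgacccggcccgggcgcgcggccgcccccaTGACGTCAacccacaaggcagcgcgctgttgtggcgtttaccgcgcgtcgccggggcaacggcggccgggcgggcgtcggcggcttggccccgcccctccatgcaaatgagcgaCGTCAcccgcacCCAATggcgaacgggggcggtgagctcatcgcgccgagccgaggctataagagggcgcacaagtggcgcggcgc
JUN: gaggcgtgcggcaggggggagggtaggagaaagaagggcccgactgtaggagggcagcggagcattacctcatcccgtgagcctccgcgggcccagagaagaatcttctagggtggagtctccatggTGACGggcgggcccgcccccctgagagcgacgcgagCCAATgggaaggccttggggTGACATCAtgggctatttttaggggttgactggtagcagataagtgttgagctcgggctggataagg
FOS: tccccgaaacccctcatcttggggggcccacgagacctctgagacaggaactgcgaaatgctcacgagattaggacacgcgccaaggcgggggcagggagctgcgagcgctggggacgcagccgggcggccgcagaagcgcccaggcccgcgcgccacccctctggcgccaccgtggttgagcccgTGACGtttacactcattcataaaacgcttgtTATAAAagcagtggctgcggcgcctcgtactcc
FOSB: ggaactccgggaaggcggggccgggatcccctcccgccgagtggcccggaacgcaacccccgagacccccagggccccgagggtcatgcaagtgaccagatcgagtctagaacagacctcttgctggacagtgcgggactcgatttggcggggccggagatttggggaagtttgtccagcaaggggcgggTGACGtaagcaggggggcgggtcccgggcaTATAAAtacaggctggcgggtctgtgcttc
A RefSeq promoter was found for 8 of the 10 members, and FOSL1 and BATF3 had none. The core TGACG stood in 6 of the 8, and in 21.2% of all 35116 promoters of this length. JUNB had it 137 bases before the start (positions -137 to -133), CCAAT at -67 to -63 and TATAAA at -31 to -26. JUND was the member with the full TGACGTCA, at -200 to -193, a motif found in 1.65% of all promoters. JUN had TGACATCA at -67 to -60 (2.37% of promoters), as BATF2 did at -132 to -125. FOS and FOSB both had TATAAA (10.7% of promoters), at -33 to -28 in FOS and -30 to -25 in FOSB. CCAAT stood in JUN, JUNB and JUND and in 32% of promoters. The AP-1 site TGACTCA was in none of the 8 windows and in 4.2% of all. CAGAC, the short motif that SMAD proteins bind, was in the windows of FOSB and FOSL2 and in 38% of promoters. These matches describe letters and not binding.

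Per unit of gene length, the JUN genes and BATF3 led and FOS was near the bottom. These lengths are given per gene and need not match the transcripts present. On the scale of CPM per kilobase, with the gene lengths of the count table, JUND averaged 59.6 ± 16.3 in SKI knockout and 79.3 ± 25.5 in control libraries (SD, n = 3 each). JUNB followed with 38.2 ± 8.98 in SKI knockout and 75.2 ± 6.99 in control libraries, and BATF3 with 31.3 ± 6.76 in SKI knockout and 24.3 ± 2.67 in control libraries. JUN came next, at 14.3 ± 5.80 in SKI knockout and 10.9 ± 2.62 in control libraries. FOSL2 and FOSL1 lay close together below JUN, followed by BATF. FOSL2 was at 9.49 ± 2.94 in SKI knockout and 8.79 ± 0.735 in control libraries, FOSL1 at 7.57 ± 1.76 in SKI knockout and 9.10 ± 0.952 in control libraries, and BATF at 5.0 ± 1.91 in SKI knockout and 5.92 ± 0.999 in control libraries. FOSB was at 2.05 ± 1.6 in SKI knockout and 5.13 ± 6.55 in control libraries, and FOS at 0.864 ± 0.364 in SKI knockout and 1.19 ± 0.579 in control libraries. BATF2 averaged 0.0307 in SKI knockout and 0.0249 in control libraries. In the order of control levels, JUND and JUNB, JUN and FOSL1, FOSL1 and FOSL2, and FOSB and its neighbours BATF and FOS were within their spreads of one another. BATF3 stood clear of JUNB above it and JUN below it. In control cells 97.1% of tested genes had a lower mean CPM per kilobase than JUND, 96.8% a lower one than JUNB and 88.1% a lower one than BATF3, but only 34.1% a lower one than FOS.

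**Figure D1:**
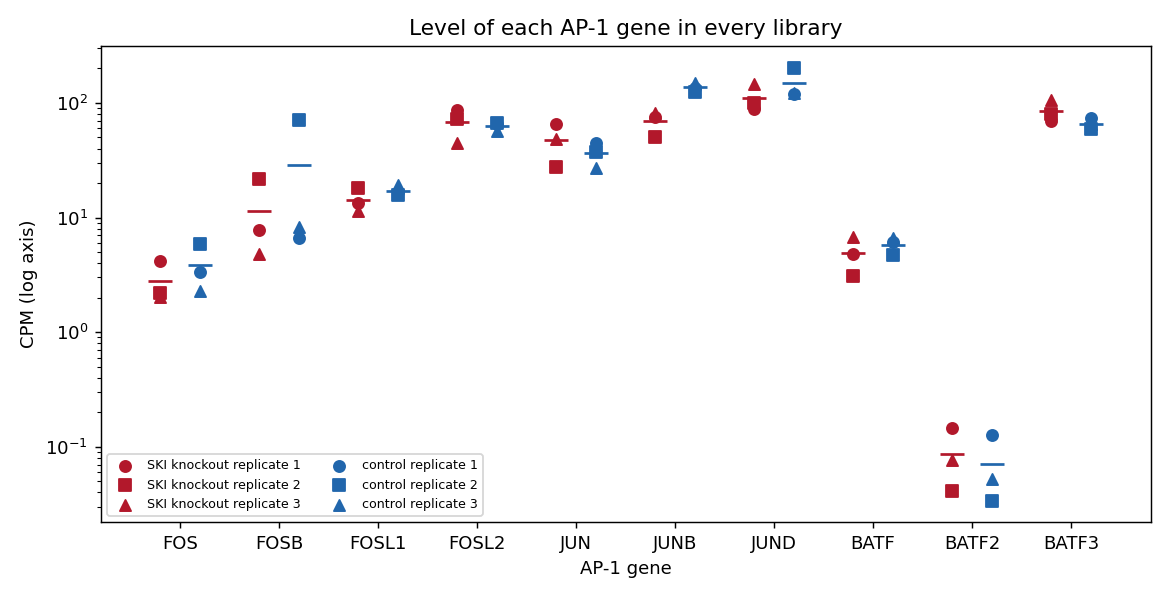
CPM of each AP-1 gene (x axis) in every library on a log axis, with SKI knockout libraries in red, control libraries in blue, a marker shape per replicate number and a line at each group mean. JUNB is the gene whose 3 SKI knockout values, up to 81.1 CPM, all lie below its control values, from 124.9 CPM, and FOSB in control replicate 2 stands alone at 70.5 CPM.

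Among the 9 tested members JUNB fell, and none rose. That is 1 of 9 called, where edgeR called 11.8% of all 16340 tested genes, 6.19% higher and 5.63% lower. No member was higher at an unadjusted p of 0.05 either, where 27.1% of all genes passed in one direction or the other. DESeq2, which called 16.1% of all genes, and limma-voom, which called 11.5%, also called JUNB alone, as lower. JUNB also kept its call with DESeq2 size factors (11.9% of genes called), library totals (10.6%), a filter at 1 CPM in 3 libraries (13%) and the replicate block (12.9%). The median log2 fold change of the 9 was -0.27, against -0.01 over all tested genes. The share of members called was thus near that of all genes.

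JUNB, a JUN family protein that often opposes the growth-promoting activity of JUN, had 76.0, 50.7 and 81.1 CPM in SKI knockout replicates 1 to 3, against 134.7, 124.9 and 150.0 CPM in control replicates 1 to 3. All 3 SKI knockout libraries were lower than all 3 control libraries. Such a separation of the groups was seen in 32.2% of tested genes, 16.1% with SKI knockout lower and 16% with SKI knockout higher, and JUNB was the single member among them. The means were 69.3 ± 16.3 CPM in SKI knockout and 136.5 ± 12.7 CPM in control cells (SD, n = 3 each). The log2 fold change was -0.98 (SE 0.19, edgeR adjusted p = 0.00699), or 1.97-fold lower. It was called in all 6 fits that left out 1 library, with log2 fold changes from -1.08 to -0.77 and adjusted p from 0.00154 to 0.0473. Those fits called 6.09%, 14.7% and 13.6% of all genes without SKI knockout replicates 1, 2 and 3, and 8.09%, 5.61% and 4.45% without control replicates 1, 2 and 3. The authors' deposited table lists JUNB at a log2 fold change of -0.90 (adjusted p = 0.000231).

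JUND, the most steadily expressed JUN family gene in many tissues and a partner of menin, had 88.5, 99.98 and 145.9 CPM in SKI knockout replicates 1 to 3, against 119.5, 203.3 and 122.0 CPM in control replicates 1 to 3. The groups overlapped, with the highest value in control replicate 2. Its log2 fold change was -0.41 (95% interval -0.94 to 0.11, adjusted p = 0.299). JUN, the founding member, which can activate transcription as a homodimer, had 65.8, 27.4 and 48.8 CPM in SKI knockout libraries and 44.4, 37.2 and 27.1 CPM in control libraries. The SKI knockout libraries enclosed all but the lowest control value. The log2 fold change of JUN was 0.39 (95% interval -0.22 to 1.0, adjusted p = 0.410), so a rise as large as the fall of JUNB lay within its interval.

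JUNB, JUND and FOSB lie on chromosome 19, and the level of that chromosome as a whole differed between the lines. The median log2 fold change of its 665 well-expressed genes was -0.48, and 29.6% of its 933 tested genes were called lower. JUNB, at -0.98, lay lower than most of them, since 5.56% of the well-expressed genes of the chromosome were at or below it. The median of its 50 nearest such genes was -0.32. Among adjoining tested genes, HOOK2 was at -0.27 (adjusted p = 0.518), RNASEH2A at -0.34 (adjusted p = 0.413), ASNA1 at -0.53 (adjusted p = 0.0764) and MAST1 at 0.029 (adjusted p = 0.946). With each gene taken relative to the median of its chromosome, the log2 fold change of JUNB was -0.50 and its call was lost (adjusted p = 0.123), in a fit that called 8.27% of all genes. Taken relative to its 50 nearest genes, it was -0.66 and missed the threshold (adjusted p = 0.0538), in a fit that called 7.74%. JUND, relative to its chromosome, was at 0.07 (adjusted p = 0.897). HOOK2 shares 259 bases of exon with JUNB on the opposite strand in GENCODE 29, and the sources used here do not give the strand setting of the counting. HOOK2 had 11.5 to 20.7 CPM in SKI knockout libraries and 14.1 to 24.5 CPM in control libraries, well under JUNB.

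**Figure D2:**
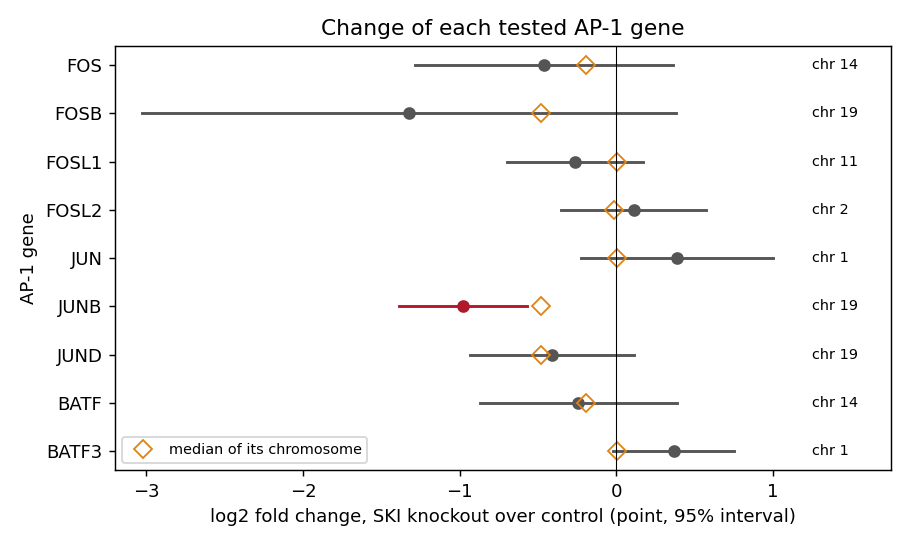
Log2 fold change of SKI knockout over control (x axis) for each tested AP-1 gene (y axis), with its 95% interval, the called gene in red and an open diamond at the median log2 fold change of the chromosome named at right. Only the interval of JUNB, -1.39 to -0.57, leaves out 0, and it also leaves out the chromosome 19 median of -0.48. The intervals are not adjusted for the number of genes. Relative to that median JUNB was at -0.50 and was not called (edgeR adjusted p = 0.123).

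**Figure D3:**
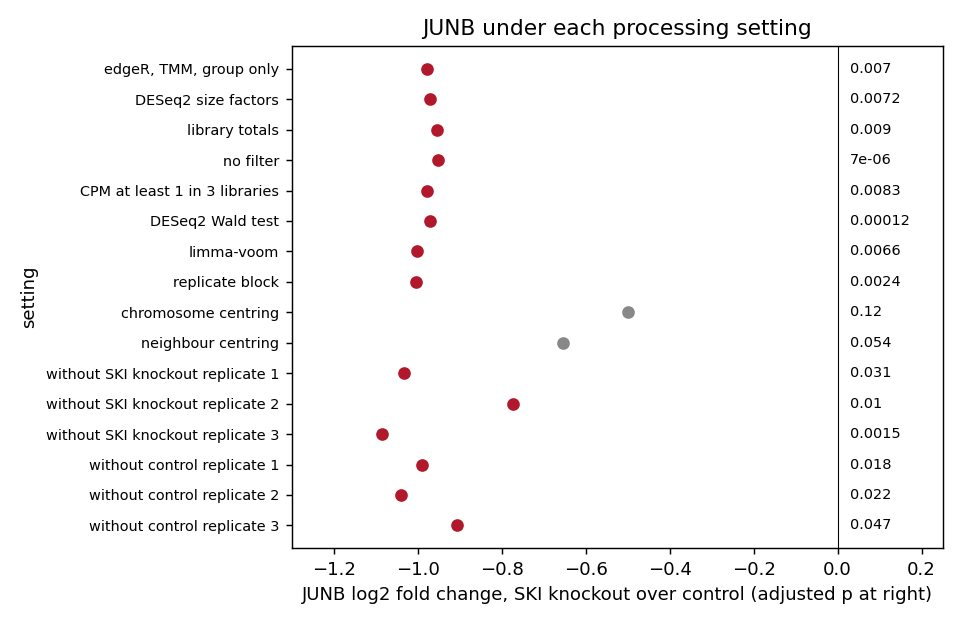
Log2 fold change of JUNB, SKI knockout over control (x axis), under each processing setting (y axis), with the adjusted p at right, red where it is under 0.05 and grey where it is not. The value stays between -1.08 and -0.77 under the other settings and is -0.50 and -0.66 with chromosome and neighbour centring.

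The FOS genes did not pass the test, and a single library set the picture of FOSB. FOSB, an immediate-early partner of JUN proteins, had 7.84, 21.5 and 4.84 CPM in SKI knockout replicates 1 to 3, against 6.65, 70.5 and 8.30 CPM in control replicates 1 to 3. Control replicate 2 was 10.6 times as high as the lowest control library, a wider spread than for all but 0.0284% of 10568 well-expressed genes. In the SKI knockout the ratio of highest to lowest was 4.45, exceeded by 0.218% of genes, and there too replicate 2 was the highest. The log2 fold change of FOSB was -1.32 (SE 0.78, adjusted p = 0.305). Without control replicate 2 it turned to 0.61 (adjusted p = 0.545). With every gene that had a read kept in the fit, which called 9.5% of 30025 genes, FOSB was called lower (log2 -1.31, adjusted p = 1.76e-08). The authors' deposited table gives FOSB no p-value, as it does for 7 genes in all.

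FOS, the founding partner of JUN, stood low in every library, at 4.16, 2.19 and 2.04 CPM in SKI knockout replicates 1 to 3 and 3.37, 5.92 and 2.27 CPM in control replicates 1 to 3. Those values rest on 106 to 349 reads a library. The groups overlapped, control replicate 2 was again the highest, and the log2 fold change was -0.46 (95% interval -1.29 to 0.36, adjusted p = 0.471). FOSL1 and FOSL2 encode the FOS-related proteins FRA1 and FRA2, which lack the strong activation domain of FOS. Both were steadier in control libraries, with ratios of highest to lowest of 1.22 and 1.17, against 2.61 for FOS. In SKI knockout libraries the ratios were 1.57 for FOSL1 and 1.92 for FOSL2, against 2.04 for FOS. FOSL1 had 13.5, 17.9 and 11.4 CPM in SKI knockout libraries and 16.7, 15.6 and 19.1 CPM in control libraries. Its groups overlapped, with a log2 fold change of -0.27 (adjusted p = 0.426). FOSL2 had 86.2, 72.6 and 44.9 CPM in SKI knockout libraries and 65.5, 66.4 and 56.8 CPM in control libraries. The SKI knockout values of FOSL2 lay on both sides of the control values, with a log2 fold change of 0.11 (95% interval -0.35 to 0.58, adjusted p = 0.781).

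Of the BATF genes, which encode small AP-1 proteins without an activation domain of their own, BATF3 was the abundant one and BATF2 was almost absent. BATF3, required in mice for a class of dendritic cells, had 69.2, 80.7 and 105.1 CPM in SKI knockout replicates 1 to 3, against 73.3, 58.9 and 65.6 CPM in control replicates 1 to 3. Both higher SKI knockout values exceeded every control value, while replicate 1 did not. The log2 fold change was 0.37 (SE 0.18, adjusted p = 0.208), with a 95% interval of -0.02 to 0.75. BATF, which works with JUN proteins and IRF4 in lymphocytes, had 4.79, 3.08 and 6.82 CPM in SKI knockout libraries and 6.07, 4.72 and 6.62 CPM in control libraries. These overlapped, with a log2 fold change of -0.24 (adjusted p = 0.632). BATF2 had 8, 2 and 4 reads in SKI knockout libraries and 6, 2 and 3 reads in control libraries, too few for a comparison. Its partners were scarce as well, since IRF8 had 0 counts in every library and IRF4 at most 0.0904 CPM in SKI knockout and 0.0528 CPM in control libraries.

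As a share of the summed CPM per kilobase of all 10 genes, JUNB held less in the SKI knockout libraries and BATF3 more. JUNB made up 19.04% to 26.0% of the sum in SKI knockout libraries and 27.8% to 39.9% in control libraries. BATF3 made up 15.8% to 20.3% in SKI knockout libraries and 8.77% to 13.2% in control libraries. Neither pair of ranges overlapped, but the shares depend on one another: the sum itself was 161.4, 146.7 and 197.0 CPM per kilobase in SKI knockout libraries and 205.0, 247.3 and 207.3 CPM per kilobase in control libraries, and the CPM of BATF3 overlapped between the groups. JUND held 29.3% to 39.6% in SKI knockout libraries and 31.2% to 44.0% in control libraries, and JUN held 5.62% to 12.3% in SKI knockout libraries and 3.94% to 6.53% in control libraries. FOS made up at most 0.795% in SKI knockout and 0.740% in control libraries. FOSB made up 0.442% to 2.64% in SKI knockout and 0.584% to 5.13% in control libraries, and in control replicate 2 its share was above that of JUN, at 4.53%. Within the JUN family, JUNB was at 34.0 ± 3.86% in SKI knockout and 46.1 ± 8.61% in control libraries (SD, n = 3 each), where control replicate 2, at 36.5%, fell among the SKI knockout values. These shares are descriptions without a test.

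**Figure D4:**
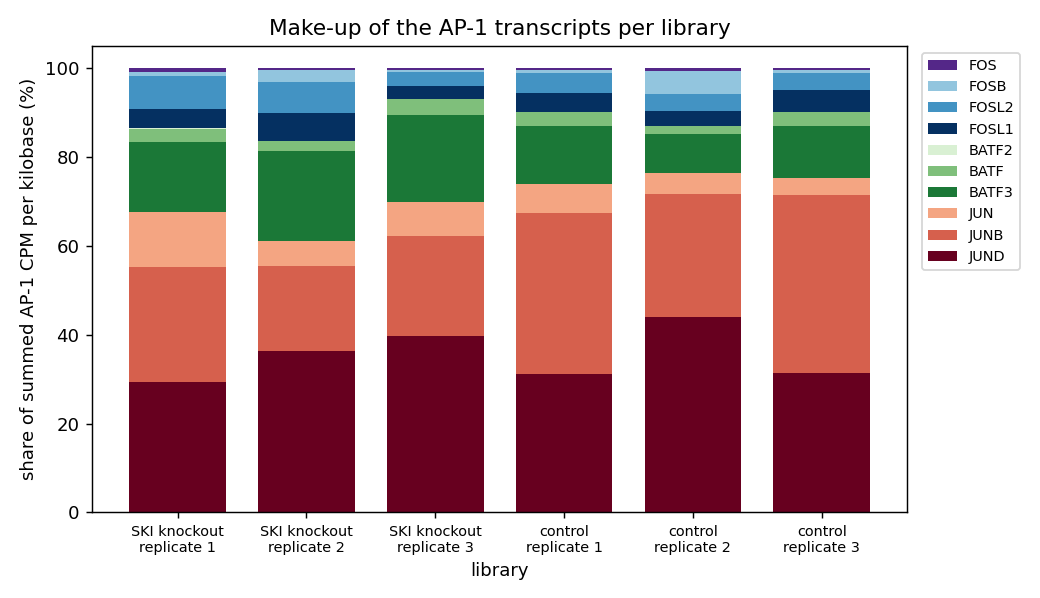
Share of each AP-1 gene (coloured segments) in the summed CPM per kilobase of the 10 genes (y axis, percent) for each SKI knockout and control library (x axis). The JUNB segment runs from 19.04% to 26.0% in SKI knockout libraries and from 27.8% to 39.9% in control libraries.

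The genes whose profiles over the 6 libraries lay nearest to JUNB were RHBDL1, CTD-2587H19.1 and ZNF579. Their Euclidean distances to JUNB in gene-centred log2 CPM were 0.181, 0.227 and 0.281, where the median over 10567 genes was 1.44. The nearest genes to JUN were FBXO8, AL162407.1 and C5orf34, at distances of 0.318, 0.397 and 0.409. FOS was nearest to the mitochondrial pseudogene MTND2P28 (0.569), to STK17B (0.635) and to RP11-473I1.10 (0.697).

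The lists that follow hold genes around AP-1 and are described by counts beside the 11.8% of all tested genes that were called. Of 19 other basic leucine zipper genes, some of which can pair with AP-1 proteins, 16 were tested. Of these, 3 rose (18.8% called), none fell and 13 missed the threshold. Their median log2 fold change was 0.15. DESeq2, which called 16.1% of all genes, called 5 higher, and limma-voom, which called 11.5%, called 3. Neither called any lower. At an unadjusted p of 0.05 in edgeR, 7 were higher and 2 lower, where 27.1% of all genes passed in one direction or the other. MAFF, a small MAF protein without an activation domain, rose to 15.1 ± 2.83 CPM in SKI knockout, against 6.52 ± 1.18 CPM in control cells (SD, n = 3 each, log2 1.21, adjusted p = 0.00479). DDIT3, the stress factor CHOP, had 266.7, 176.5 and 406.9 CPM in SKI knockout libraries and 135.8, 99.8 and 101.2 CPM in control libraries (log2 1.34, adjusted p = 0.00809). Its exons share 355 bases with MARS on the opposite strand. ATF3, a stress-induced partner of JUN, had 47.4, 38.2 and 54.4 CPM in SKI knockout libraries and 23.1, 29.2 and 19.4 CPM in control libraries (log2 0.97, adjusted p = 0.00876). ATF3 adjoins BATF3 among the tested genes of chromosome 1, so of these neighbours ATF3 passed and BATF3 did not, and the difference between them was not tested. JDP2, a repressor that pairs with JUN, lies between FOS and BATF on chromosome 14. Its 3 SKI knockout values, 31.8, 28.1 and 47.2 CPM, exceeded the control values of 24.8, 26.3 and 22.1 CPM, at a log2 difference of 0.55 (adjusted p = 0.102). Without control replicate 3, DDIT3 (adjusted p = 0.0597) and ATF3 (adjusted p = 0.0584) missed the threshold, while MAFF kept its call in all 6 fits.

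Of 18 MAP kinase genes upstream of AP-1, all tested, 2 rose and 2 fell (22.2% called), and 14 missed the threshold. Their median log2 fold change was 0.25. RPS6KA2, a ribosomal S6 kinase activated by ERK, rose to 6.76 ± 1.20 CPM in SKI knockout, against 2.28 ± 0.603 CPM in control cells (SD, n = 3 each, log2 1.57, adjusted p = 0.00357). It lies on chromosome 6, whose median was 0.42, and it kept its call relative to that median (adjusted p = 0.0198). RPS6KA5, the kinase MSK1 that phosphorylates CREB and histone H3, was at a log2 fold change of 0.73 (adjusted p = 0.0268). MAP2K7, which activates the JUN kinases, fell to 66.3 ± 6.18 CPM in SKI knockout, against 103.0 ± 10.2 CPM in control cells (SD, n = 3 each, log2 -0.64, adjusted p = 0.0176). MAP2K7 lies on chromosome 19, and relative to its chromosome it was at -0.16 (adjusted p = 0.560). MAP3K1, a kinase above MAP2K4 and MAP2K7, had 17.5, 22.8 and 8.65 CPM in SKI knockout libraries and 26.3, 52.2 and 35.0 CPM in control libraries (log2 -1.21, adjusted p = 0.0333). RPS6KA5 kept its call in 1 of the 6 fits that left out 1 library, the one without SKI knockout replicate 3 (adjusted p = 0.00978), and its adjusted p reached 0.124 in the others. MAP2K7 and MAP3K1 kept theirs in 3 fits each. Both missed without SKI knockout replicate 1, control replicate 2 or control replicate 3, with adjusted p up to 0.0923 for MAP2K7 and 0.142 for MAP3K1. RPS6KA5 shares 304 bases of exon with DGLUCY on the opposite strand. Of the 12 genes of SRF, ternary complex, CREB and MEF2 factors, some of which drive FOS transcription, none passed in edgeR, DESeq2 or limma-voom. These called 11.8%, 16.1% and 11.5% of all genes. At an unadjusted p of 0.05 in edgeR, 1 was higher, where 27.1% of all genes passed in one direction or the other.

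Of 30 other immediate-early genes 27 were tested, of which 5 rose, 4 fell and 18 missed the threshold, or 33.3% called. Their median log2 fold change was 0.27. They did not move as a block. PPP1R15A, which ends the translational stress block, rose to 327.7 ± 106.2 CPM in SKI knockout, against 131.8 ± 36.7 CPM in control cells (SD, n = 3 each, log2 1.31, adjusted p = 0.00786). PPP1R15A lies on chromosome 19, where 85.7% of the well-expressed genes had a log2 fold change below 0. CSRNP1 rose as well, at a log2 fold change of 1.17 (adjusted p = 0.00815). TRIB1, a pseudokinase that guides the breakdown of CEBPA, fell to 151.2 ± 27.2 CPM in SKI knockout, against 290.1 ± 28.5 CPM in control cells (SD, n = 3 each, log2 -0.94, adjusted p = 0.00581). GADD45B, an activator of stress kinases on chromosome 19, was at -0.90 (adjusted p = 0.00982) and relative to its chromosome at -0.42 (adjusted p = 0.192). Without control replicate 3, PPP1R15A (adjusted p = 0.0581) and CSRNP1 (adjusted p = 0.0561) missed the threshold, and without control replicate 2 so did GADD45B (adjusted p = 0.0533).

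Single libraries stood out among these inducible genes, and FOSB was not alone in control replicate 2. That library was the highest of the 6 for 7 of the 27 other immediate-early genes and for FOS, FOSB and JUND, where it was the highest for 16.1% of all tested genes. SKI knockout replicate 1 was the highest for more of the 27, 10 of them or 37.0%, against 17.6% of all tested genes, and SKI knockout replicate 2 for none, against 11.4%. The genes named in this paragraph were chosen after their values were seen. EGR3, a zinc finger factor of the EGR family, was at 0.361, 1.20 and 0.495 CPM in SKI knockout replicates 1 to 3 and at 0.335, 2.26 and 0.440 CPM in control replicates 1 to 3, so replicate 2 was the highest in both groups, as for FOSB. NR4A3, an orphan nuclear receptor, was at 0.163, 0.124 and 0.0953 CPM in SKI knockout libraries and 0.230, 0.679 and 0.299 CPM in control libraries (adjusted p = 0.0622). EGR1, the immediate-early gene most often measured beside FOS, took another course. It had 65.5, 12.9 and 55.0 CPM in SKI knockout replicates 1 to 3 and 35.5, 24.0 and 46.5 CPM in control replicates 1 to 3, with its lowest value in SKI knockout replicate 2. JUN, too, was lower in SKI knockout replicate 2 than in the other 2 SKI knockout libraries. What set these libraries apart is not given in the labels and was not tested.

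**Figure D5:**
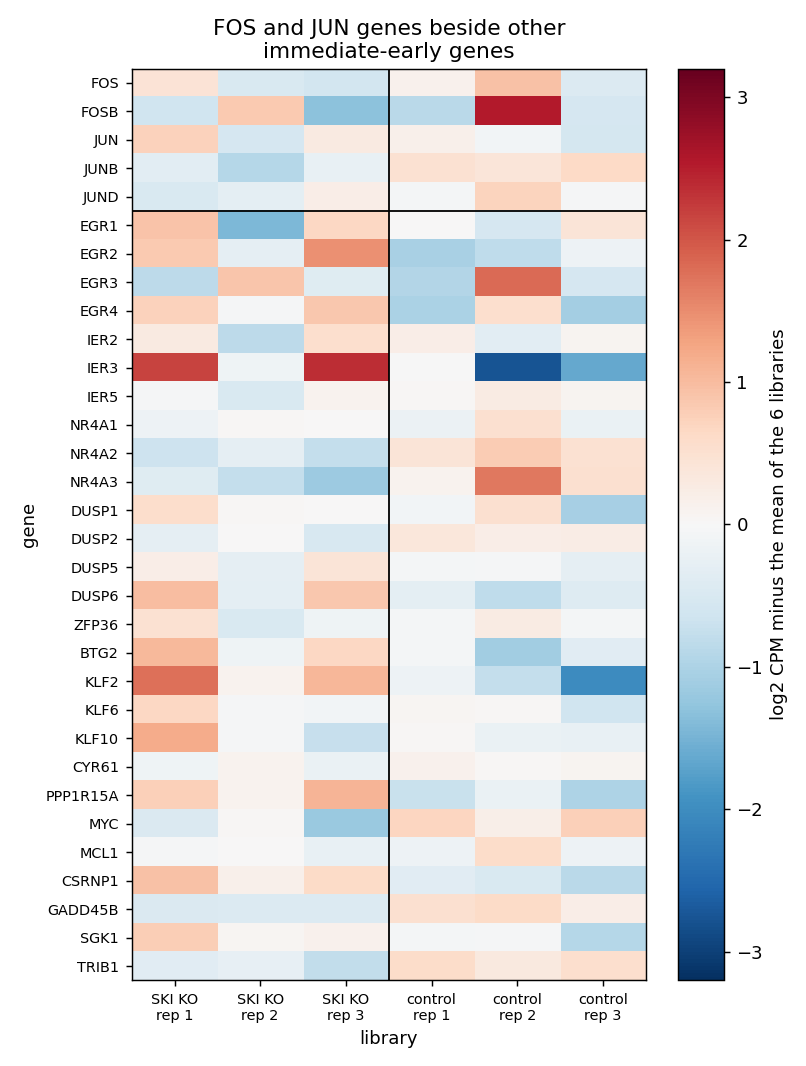
Log2 CPM of the FOS and JUN genes (above the line) and 27 other immediate-early genes (below it), each minus its mean over the 6 libraries (colour scale), by library (x axis). FOSB and EGR3 are highest in control replicate 2, where they reach 70.5 and 2.26 CPM, while EGR1 is lowest in SKI knockout replicate 2, at 12.9 CPM.

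Of 28 genes known as targets of AP-1 in various cells 17 were tested, of which 5 rose, 3 fell and 9 missed the threshold, or 47.1% called. Their median log2 fold change was 0.26. Some genes often used as AP-1 readouts were scarce, since MMP1, MMP3, CCL2, IL1B and IL6 were among the 11 that did not pass the filter on low counts. Others among the 17 tested were not scarce, such as CD44, at 715.6 CPM, and VIM, at 472.1 CPM, on average in control cells. CCND1, which encodes cyclin D1, rose to 2.41 ± 0.631 CPM in SKI knockout, against 0.197 ± 0.116 CPM in control cells (SD, n = 3 each, log2 3.63, adjusted p = 0.000823). ITGAX, the integrin chain CD11c, rose to 9.15 ± 1.29 CPM in SKI knockout, against 2.10 ± 0.584 CPM in control cells (SD, n = 3 each, log2 2.13, adjusted p = 0.000788). VEGFA, a growth factor of blood vessels on chromosome 6, rose to 386.5 ± 60.9 CPM in SKI knockout, against 197.7 ± 17.2 CPM in control cells (SD, n = 3 each, log2 0.97, adjusted p = 0.00429). The chromosome 6 median was 0.42, and relative to it VEGFA was at 0.54 (adjusted p = 0.0685), while relative to its 50 nearest genes it was at 0.76 and kept its call (adjusted p = 0.0180). PLAUR, the urokinase receptor, had 7.61, 7.62 and 7.51 CPM in SKI knockout libraries and 20.1, 15.6 and 12.3 CPM in control libraries (log2 -1.08, adjusted p = 0.00702). PLAUR lies on chromosome 19, and relative to its chromosome it was at -0.60 (adjusted p = 0.0954). CCND1 shares 497 bases of exon with LTO1 on the opposite strand. The list thus held genes that moved in both directions.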

How the data were processed

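Per the labels' protocols, RNA of 6 HL60 libraries went through a stranded kit for mRNA. Named in the submitters' processing notes are TopHat2, featureCounts of Subread, DESeq, DESeq2, bcl2fastq and hg19 (GRCh37), and the sources used here give no versions, annotation or strand setting. Raw counts for each gene, with gene lengths, were deposited. A second deposited table holds counts over size factors (signal), log2 fold changes, test scores and p-values of the authors. Libraries were grouped by their titles.

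Genes passing edgeR's filterByExpr went into its quasi-likelihood F test after TMM scaling, with group as the only term and Benjamini-Hochberg adjustment over all genes tested at a threshold of 0.05. Versions were R 4.3.3, edgeR 4.0.16 and limma 3.58.1. Standard errors come from the F statistic, and log2 CPM has a prior count of 2. Chromosomes and gene order come from GENCODE 29 by symbol (80.5% of tested genes). Well-expressed genes have an average log2 CPM of at least 2. Members and lists were chosen with earlier results of these data known. The text names all members, SKI, the 3 nearest profiles of FOS, JUN and called members, and up to 4 called genes per list with the smallest p. Others were named after their values were seen, and some results are not reported here. Alternatives included DESeq2 1.42.0. Scripts were tested on simulated data. No pair of libraries within a group agreed within counting noise. Of genes with at least 100 reads in the pair together, 63.4% to 79.8% differed beyond it. Those shares rest on raw library totals without TMM, so a difference in scaling between libraries also enters them. The 95% intervals of fold changes rest on the spread between libraries, while the floor of 3 counts covers counting error only.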

Additional observations from a re-analysis of the deposited data

How the results depend on the processing

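The call of JUNB held under 13 of 15 other settings, and its adjusted p was 0.123 with chromosome centring and 0.0538 with neighbour centring, so no member was lower under either (0 and 0). Without a filter on low counts 2 members were lower, JUNB and FOSB (FOSB log2 -1.31, adjusted p = 1.76e-08), and no fit without both the filter and control replicate 2 was run. No member was higher under any setting. The number of members lower stayed at 1 in each fit that left out 1 library. Over all genes, 1012 were higher and 920 lower. The count of higher genes was 1630 without a filter, and 440 to 1410 with 1 library left out. The count of lower genes was 525 with chromosome centring, 486 with neighbour centring and 300 to 1078 with 1 library left out. Without a filter more genes were tested, and a left-out library leaves fewer samples. Both counts rose, however, without SKI knockout replicate 2 (1410 higher, 1078 lower) or replicate 3 (1187 higher, 1066 lower). Why the counts moved was not tested. The centring settings subtract the local median.

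Directions that turned belonged to members that did not pass the test. With 1 library left out, the log2 fold change of FOSB ran from -2.15 to 0.61, that of FOSL2 from -0.089 to 0.36 and that of BATF from -0.53 to 0.025. That of JUND was 0.068 with chromosome centring. The order of members by level per length was the same in TPM. Replicate numbers are shared between the groups, and deviations of same-numbered libraries from their group means correlated at -0.17, 0.42 and -0.09. Libraries of unlike number correlated at -0.51 (SKI knockout replicate 2, control replicate 1) to 0.54 (SKI knockout replicate 3, control replicate 1). With group means of only 3 libraries, these values cannot decide whether the numbers pair the libraries. With the replicate block 1103 genes were higher and 1004 lower, and JUNB was at -1.0 (adjusted p = 0.00244). DESeq2 gave FOSB no adjusted p. For BATF2, with 2 to 8 reads a library, depth limits what can be seen. FOS had 106 to 349 reads a library, and its control libraries differed up to 2.61-fold.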

Other observations

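Of 8 genes of proteins that bind AU-rich elements, the decay signals of many immediate-early mRNAs, 1 rose, 2 fell and 5 did not pass. That is 37.5% called, where edgeR called 11.8% of all tested genes. The related decay factors ZFP36L1 and ZFP36L2 went opposite ways. ZFP36L1 had 20.4 ± 4.46 CPM in SKI knockout and 10.3 ± 2.39 CPM in control cells (SD, n = 3 each, log2 0.98, adjusted p = 0.0151), and missed without SKI knockout replicate 1, control replicate 1 or control replicate 3 (adjusted p up to 0.0888). ZFP36L2 had 100.6 ± 21.6 CPM in SKI knockout and 199.8 ± 14.7 CPM in control cells (SD, n = 3 each, log2 -0.99, adjusted p = 0.00519). KHSRP, on chromosome 19, was at -0.79 (adjusted p = 0.0129) and relative to its chromosome at -0.31 (adjusted p = 0.297), and missed without control replicate 2 or 3 (adjusted p up to 0.0699).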
